A study of Mus musculus with 8 samples.

Results

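Clade B serpins of squamous epithelium are described here from 10 mouse genes: Serpinb2, Serpinb3a, Serpinb3b, Serpinb3c, Serpinb3d, Serpinb5, Serpinb6c, Serpinb7, Serpinb12 and Serpinb13. They were taken by symbol from the 51912 gene identifiers in the count tables, and each of the 10 had a row. RNA came from epidermal sheets of the ears of 8 mice at 8 weeks of age, with 4 libraries from 4 animals labelled A20KIKO and 4 from 4 animals labelled A20WT. Both groups carried the conditional A20F/F alleles of Tnfaip3, which encodes A20, a restraint on NF-kB signalling and cell death. A20KIKO mice were Krt5-CreERT2+, so a tamoxifen-inducible Cre recombinase was under the Krt5 promoter, which is active in basal keratinocytes, and A20WT mice were Krt5-CreERT2-. All 8 mice received tamoxifen, 1 mg on each of 2 days, and were killed on day 7 after the first dose. The comparison of the labels therefore asks which transcripts of epidermal sheets differ a week after induction, with the presence of Cre part of the difference.

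Clade B serpins are protease inhibitors that mostly stay inside the cell, because they lack a cleaved signal peptide. An inhibitory serpin offers a target protease an exposed reactive-centre loop as bait, and once the loop is cut the serpin changes shape and traps the protease. In stratified squamous epithelium this family is abundant in keratinocytes, where it faces trypsin-like and chymotrypsin-like serine proteases and the cysteine cathepsins of lysosomes. The human counterparts of Serpinb3a to Serpinb3d are the squamous cell carcinoma antigens, which are known to be high in inflamed skin.

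Serpinb6c and Serpinb12 rose in the libraries labelled A20KIKO, none of the 10 genes fell, and the most abundant, Serpinb5, was at nearly the same level under both labels. Serpinb3a and Serpinb3b were also higher in each of the 4 libraries labelled A20KIKO than in any labelled A20WT, but neither passed the test over all genes. Values are normalised CPM, the count of a gene scaled to a common library size. Calls required a p under 0.05 after Benjamini-Hochberg adjustment over the 16512 genes of edgeR's quasi-likelihood test. By that rule 2 of the 10 genes rose and 0 fell, where 2.43% of all tested genes rose and 1.06% fell. At an unadjusted p under 0.05, 6 were higher and 1 was lower, where 8.48% of all tested genes were higher and 6.92% lower. DESeq2 called 4 higher and 0 lower, where it called 4.44% and 2.46% of all genes. Limma-voom called 3 and 0, against 2.3% and 1.04% of all genes, and with sample weights 4 and 0, against 4.18% and 2.56%. A filter on low counts passed 9 of the 10 genes and left out Serpinb3d. Of the 9 tested genes the groups did not overlap in 4, all higher under the A20KIKO label, where 5.78% of tested genes were apart in that direction and 4.79% in the other.

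**Figure D1:**
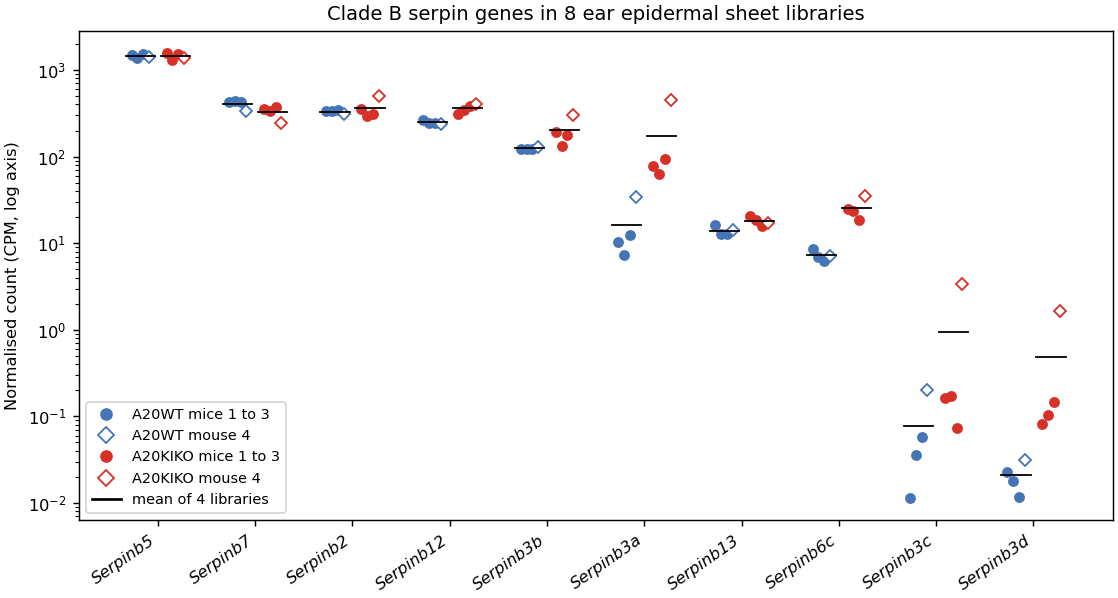
Normalised count (CPM, log axis) of each of the 10 serpin genes in each library, with A20WT-labelled libraries in blue, A20KIKO-labelled in red, mouse 4 of each label as an open diamond and the mean of 4 libraries as a bar. Serpinb6c and Serpinb12 are higher in every red point than in any blue one, Serpinb5 overlaps, and the highest point of Serpinb3a, 456 CPM, is A20KIKO mouse 4.

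Libraries held between 40451075 and 89624373 counts. For Tnfaip3 the range was 13.5 to 19.6 CPM under the A20WT label and 55.0 to 90.9 CPM under the A20KIKO label, so the targeted gene went against the label. Each count covers the whole gene, including exons outside any deleted part, and does not check the deletion, so directions below are given by label. Keratinocyte genes were abundant in every library, as the label of epidermal sheets says: the summed level of 18 suprabasal genes was 67676 to 84864 CPM under the A20WT label and 77709 to 95822 CPM under the A20KIKO label, and 2 of the 18 fell, Krt77 and Flg2. The summed level of 10 basal genes was 32156 to 42108 CPM and 23762 to 29392 CPM, without overlap. Taken singly, the groups were apart in only 1 of these 10 genes, and their median log2 change was -0.21. In the test 1 of the 10 changed, Krt5, which fell. In these bulk sheets, fewer cells of a type and less RNA per cell cannot be told apart. A20KIKO mouse 4 stood apart. Its summed level of 15 keratinocyte stress genes, such as Krt6b, Krt16 and S100a8, was 17068 CPM, against 2097 to 3301 CPM in A20KIKO mice 1 to 3 and 1242 to 3525 CPM under the A20WT label.

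The Serpinb3 paralogs are alike enough that the way reads were divided can bear on their separate values. Among the 4 genes, coding sequences were 86.6% to 93.1% identical, the most alike pair being Serpinb3b and Serpinb3c. An alignment of the 4 had 1161 columns, of which 216 differed (18.6%). The stretch that differs most codes for part of the reactive-centre loop. The 60 coding bases with the most differences, 32, are bases 1010 to 1069 from the start codon in each gene, within a single exon and on the minus strand of GRCm38. They are shown because reads over them carry the letters that tell the paralogs apart, with capitals at the positions that differ among the 4:
Serpinb3a, chr1:107046111-107046170: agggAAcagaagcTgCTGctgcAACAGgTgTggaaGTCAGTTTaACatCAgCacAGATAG
Serpinb3b, chr1:107154464-107154523: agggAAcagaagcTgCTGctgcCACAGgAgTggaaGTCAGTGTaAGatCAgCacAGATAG
Serpinb3c, chr1:107271721-107271780: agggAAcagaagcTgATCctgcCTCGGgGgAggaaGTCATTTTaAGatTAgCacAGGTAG
Serpinb3d, chr1:107078288-107078347: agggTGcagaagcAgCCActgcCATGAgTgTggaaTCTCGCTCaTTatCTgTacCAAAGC

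The 60 coding bases with the fewest differences, 3, show the opposite case. They span bases 954 to 1013 from the start codon, so their last 4 bases are the first 4 of the stretch above, and hold the longest run without a difference in the alignment, 38 bases:
Serpinb3a, chr1:107046167-107046226: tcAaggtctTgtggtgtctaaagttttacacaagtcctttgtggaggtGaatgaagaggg
Serpinb3b, chr1:107154520-107154579: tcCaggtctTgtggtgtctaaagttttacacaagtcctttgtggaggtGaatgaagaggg
Serpinb3c, chr1:107271777-107271836: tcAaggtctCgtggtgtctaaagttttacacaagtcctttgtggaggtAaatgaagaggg
Serpinb3d, chr1:107078344-107078403: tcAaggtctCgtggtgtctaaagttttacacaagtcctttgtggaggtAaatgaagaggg

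Read sharing was measured as the share of windows of a gene's longest GENCODE M21 transcript that occur, letter for letter, in a transcript of another gene. For windows of 50 bases the share was 15.1% in Serpinb3a, 14.7% in Serpinb3b, 12.2% in Serpinb3c and 13.4% in Serpinb3d. At 150 bases, the length of each sequenced read, it was 3.40% in Serpinb3a and 0% in the other 3 paralogs. All of the 150-base sharing of Serpinb3a was with Gm8080, a neighbouring gene model that was chosen after its values were seen, and none was with another Serpinb3 gene. Serpinb3b and Serpinb3c also share 35 exonic bases, since the Serpinb3b model reaches across to the start of Serpinb3c. Serpinb2 shares 291 exonic bases at one place in the genome with Serpinb10, a gene model on the same strand, and reads there fit both. Serpinb6c shared 10.4% of its 50-base windows with other genes, among them Serpinb6a, Serpinb6b, Serpinb6d and Serpinb6e, and 0% at 100 and 150 bases. The longest transcripts of the other 5 genes, Serpinb2 included, shared no window of 50 bases with a transcript of another gene. How reads that fit several places were counted is not given in the sources used here.

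Serpinb6c, a paralog of the intracellular inhibitor family around Serpinb6a, was the serpin with the smallest adjusted p of the 10. It lies at chr13:33879816-33905708 on the minus strand, apart from the other 9 genes. It had 8.63, 6.90, 6.26 and 7.10 CPM in A20WT mice 1 to 4 and 25.2, 23.3, 18.6 and 35.3 CPM in A20KIKO mice 1 to 4. Each library labelled A20KIKO was more than 2-fold above the highest labelled A20WT. Means were 7.22 ± 1.00 and 25.6 ± 7.07 CPM (SD, n = 4 each), so it rose 3.55-fold, by a log2 change of 1.83 with SE 0.19 (edgeR adjusted p = 0.00049). It passed the test without any single library, with adjusted p of 0.000377 to 0.00381, and without A20KIKO mouse 4 the rise was 3.10-fold. In number of counts it was supported by 2129 under the A20WT label and 7362 under the A20KIKO label.

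Serpinb12, an inhibitor of trypsin-like proteases found in surface epithelia, rose by a smaller and tighter amount. It lies at chr1:106934449-106957080. Levels were 262, 243, 246 and 241 CPM in A20WT mice 1 to 4 and 313, 344, 381 and 402 CPM in A20KIKO mice 1 to 4. The groups were apart, and their spread was small, with a coefficient of variation (SD as a share of the mean) of 3.94% and 11.0%. Serpinb12 rose 1.45-fold, by a log2 change of 0.54 with SE 0.11 (edgeR adjusted p = 0.0188). It kept its call in 4 of the 8 fits that leave out 1 library, with adjusted p of 0.0170 without A20WT mouse 1, 0.0471 without A20WT mouse 2, 0.0248 without A20KIKO mouse 1 and 0.0346 without A20KIKO mouse 2. In the other 4 it was lost: adjusted p was 0.0729 without A20WT mouse 3, 0.0680 without A20WT mouse 4, 0.0621 without A20KIKO mouse 3 and 0.0519 without A20KIKO mouse 4, with log2 changes of 0.48 to 0.60 over all 8 omissions.

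**Figure D2:**
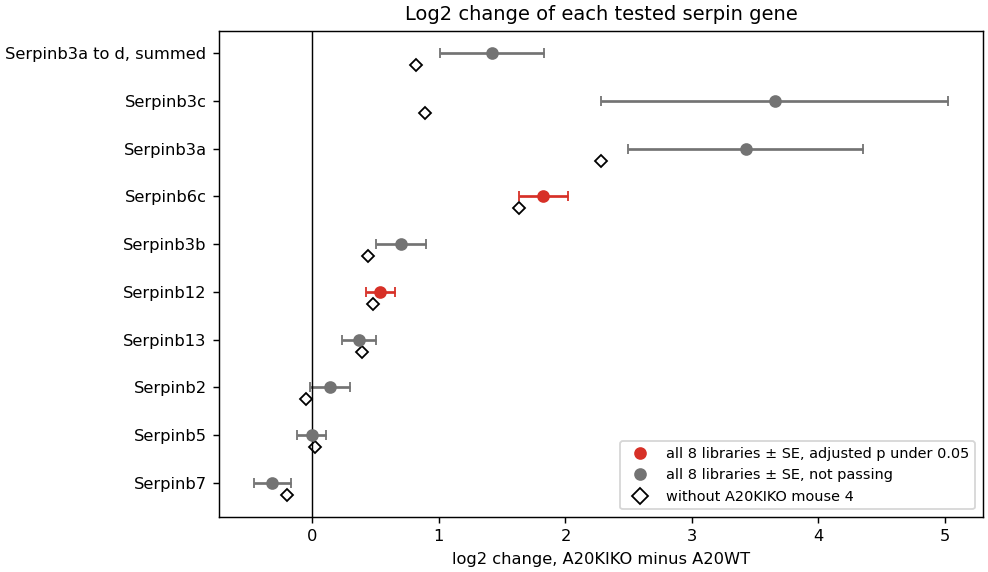
Log2 change (A20KIKO minus A20WT labels, horizontal axis) of the 9 tested serpin genes and of the 4 Serpinb3 paralogs summed, with its standard error, red where the adjusted p is under 0.05, and the value without A20KIKO mouse 4 as an open diamond. Serpinb6c and Serpinb12 pass and keep a similar value without that mouse, while Serpinb3a goes from 3.42 to 2.28 and Serpinb3c from 3.65 to 0.89.

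Serpinb3a, an inhibitor of cysteine cathepsins and chymotrypsin-like proteases by its relation to the human antigens, had the largest SD of log2 level over the 8 libraries among the 9 tested genes. It lies at chr1:107045587-107052303 on the minus strand. It had 10.2, 7.23, 12.5 and 34.6 CPM in A20WT mice 1 to 4 and 77.0, 63.5, 94.8 and 456 CPM in A20KIKO mice 1 to 4. A20KIKO mouse 4 had the highest level and A20WT mouse 4 the highest under its own label, and the groups did not overlap. Means were 16.1 ± 12.5 and 173 ± 189 CPM (SD, n = 4 each), a difference of 10.7-fold that did not pass (log2 change 3.42, SE 0.93, 95% interval 1.17 to 5.67, edgeR adjusted p = 0.138). Without A20KIKO mouse 4 it was 4.87-fold (log2 change 2.28, adjusted p = 0.0898). The call depended on how the spread was estimated: adjusted p was 0.00101 in DESeq2, 0.0195 in limma-voom, 0.00729 in limma-voom with sample weights and 0.0226 with non-robust dispersions in edgeR.

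Serpinb3b carried most of the Serpinb3 counts in 7 of the 8 libraries. It lies at chr1:107153940-107278361 on the minus strand. Levels were 123, 122, 123 and 130 CPM in A20WT mice 1 to 4 and 193, 134, 179 and 303 CPM in A20KIKO mice 1 to 4. The groups were narrowly apart, A20KIKO mouse 2 lying just above A20WT mouse 4. The difference of 1.63-fold did not pass (log2 change 0.70, SE 0.20, 95% interval 0.27 to 1.13, edgeR adjusted p = 0.0817). Adjusted p was 0.0183 without A20KIKO mouse 2 and 0.0155 in DESeq2, and the fold was 1.36 without A20KIKO mouse 4.

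Serpinb3c and Serpinb3d were close to the detection limit in most libraries. Serpinb3c, at chr1:107271201-107278371, had 1, 2, 5 and 13 counts in A20WT mice 1 to 4 and 14, 10, 3 and 295 in A20KIKO mice 1 to 4. The groups overlapped, and the log2 change of 3.65 (SE 1.37, edgeR adjusted p = 0.236) became 0.89 without A20KIKO mouse 4. Serpinb3d, at chr1:107078167-107083506, had 2, 1, 1 and 2 counts in A20WT mice 1 to 4 and 7, 6, 6 and 143 in A20KIKO mice 1 to 4. Unlike those of Serpinb3c, its groups did not overlap, but the filter left it out of the main test. With no filter 3 of the 10 genes were called higher, Serpinb3d joining Serpinb6c and Serpinb12. That fit called 636 genes in either direction and covered every identifier with a count, leaving out 23541 of the 51912. That call rests on few counts outside A20KIKO mouse 4. Beside the shared windows above, the part of Serpinb3a and Serpinb3b reads in these low counts was not tested.

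Summing the 4 paralogs before the fit sets aside how the counted reads were divided among them. It does not restore reads that were left uncounted or given to other genes. The sum was 133, 129, 135 and 165 CPM in A20WT mice 1 to 4 and 270.0, 198, 274 and 764 CPM in A20KIKO mice 1 to 4, without overlap. Its log2 change of 1.42 (SE 0.41) did not pass (edgeR adjusted p = 0.128). Without A20KIKO mouse 4 the log2 change was 0.81 and passed (adjusted p = 0.0104), and without A20KIKO mouse 2 it was 1.63 and passed (adjusted p = 0.0373). The make-up of the sum differed by label. Serpinb3a held 7.67%, 5.60%, 9.22% and 20.9% of Serpinb3 counts in A20WT mice 1 to 4 and 28.5%, 32.1%, 34.6% and 59.7% in A20KIKO mice 1 to 4, with 95% Wilson intervals no wider than 20.2% to 21.7% under the A20WT label and 33.7% to 35.4% under the A20KIKO label. These intervals cover counting error only. The share was lowest in A20KIKO mouse 1 under its label, still above the 20.9% of A20WT mouse 4.

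**Figure D3:**
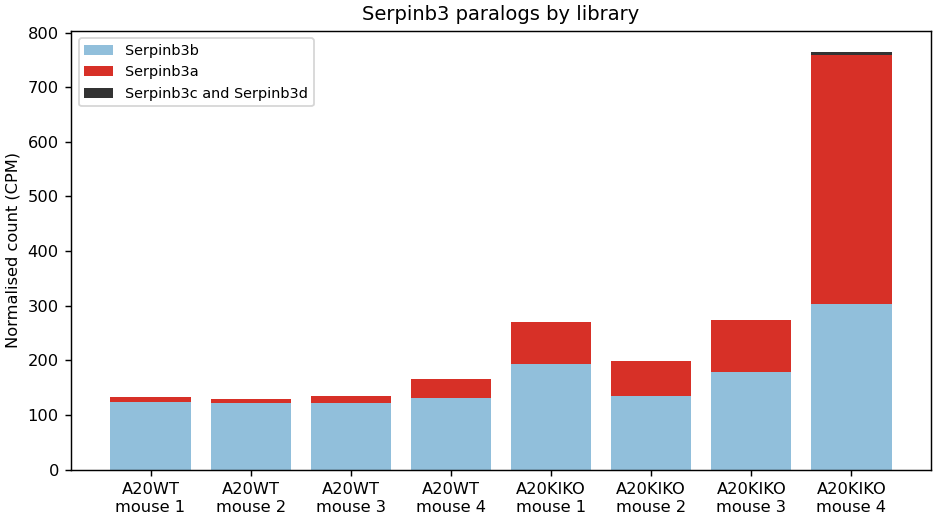
Normalised count (CPM, vertical axis) of the Serpinb3 paralogs in each library, stacked as Serpinb3b (light blue), Serpinb3a (red) and Serpinb3c with Serpinb3d (black). The red part makes up 5.60% to 20.9% of the column in the A20WT-labelled libraries and 28.5% to 59.7% in the A20KIKO-labelled ones, and the column of A20KIKO mouse 4 reaches 764 CPM.

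Gm8080, the pseudogene that shares sequence with Serpinb3a, moved the same way and was called. It had 2.64, 2.69, 2.73 and 4.04 CPM in A20WT mice 1 to 4 and 13.6, 6.33, 13.8 and 28.0 CPM in A20KIKO mice 1 to 4 (log2 change 2.36, SE 0.39, edgeR adjusted p = 0.00931). Its adjusted p was 0.0828, 0.0713 and 0.0518 without A20WT mouse 1, 2 or 3. Which of its reads came from Serpinb3a was not tested. Adding Gm8080 and the pseudogenes Gm8084 and Gm8089 to the sum gave a log2 change of 1.45 (adjusted p = 0.121).

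Serpinb5, or maspin, a member without protease-inhibiting activity that is known as a tumour suppressor of epithelia, made up more counts than any other of the 10 genes. It lies at chr1:106861173-106883348. It had 1495, 1371, 1515 and 1401 CPM in A20WT mice 1 to 4 and 1553, 1299, 1545 and 1365 CPM in A20KIKO mice 1 to 4. The groups overlapped across nearly their whole range, and the 95% interval of the log2 change was -0.26 to 0.25. Maspin was 54.0% to 56.6% of the summed CPM of the 10 genes under the A20WT label. Under the A20KIKO label it was 51.8% to 53.8% in mice 1 to 3 and 41.0% in mouse 4.

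Serpinb7, or megsin, whose loss in people gives a palmoplantar keratosis, was the single tested gene with a negative difference beyond its SE. It lies at chr1:107399655-107452689. Levels were 424, 434, 428 and 338 CPM in A20WT mice 1 to 4 and 350.2, 332, 375 and 246 CPM in A20KIKO mice 1 to 4. Mouse 4 was the lowest library under each label, and the groups overlapped through A20WT mouse 4. The log2 change of -0.32 (SE 0.15) did not pass (edgeR adjusted p = 0.32).

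Serpinb2, the plasminogen activator inhibitor that acts on urokinase, and Serpinb13, or hurpin, an inhibitor of cathepsins K and L, did not pass either. Serpinb2 lies at chr1:107511423-107535478. It had 332, 340, 343 and 310 CPM in A20WT mice 1 to 4 and 354, 293, 314 and 496 CPM in A20KIKO mice 1 to 4. The library that set it apart was again A20KIKO mouse 4, without which the log2 change went from 0.14 to -0.05. Serpinb13, at chr1:106980984-107001195, had 16.1, 12.7, 12.8 and 14.1 CPM in A20WT mice 1 to 4 and 20.5, 18.7, 15.7 and 17.1 CPM in A20KIKO mice 1 to 4. A20KIKO mouse 3 overlapped with A20WT mouse 1. The log2 change was 0.37 (SE 0.13, edgeR adjusted p = 0.186), and it passed in limma-voom with sample weights (adjusted p = 0.0303).

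Per kilobase of exon, Serpinb5 was the most abundant of the 10 genes under both labels. Mean levels under the A20WT label were 526 CPM per kb for Serpinb5, 207 for Serpinb7, 141 for Serpinb2, 99.2 for Serpinb12 and 73.8 for Serpinb3b, and each of these 5 was apart from the next in all 4 libraries. Serpinb3a followed at 9.89 ± 7.66 CPM per kb (SD, n = 4), overlapping Serpinb13 at 8.32 ± 0.95. Serpinb6c had 5.19 CPM per kb, and Serpinb3c and Serpinb3d had 0.046 and 0.017. Under the A20KIKO label Serpinb5 (524 CPM per kb) was still apart from the rest. Serpinb7, Serpinb2, Serpinb12, Serpinb3b and Serpinb3a, at 167, 155, 144, 120 and 106 CPM per kb, each overlapped with the next. Serpinb6c, at 18.4 CPM per kb, was above Serpinb13 at 10.8, without overlap, the reverse of their order under the A20WT label. With the longest transcript as the length, Serpinb12 came before Serpinb2 and Serpinb7 under the A20KIKO label.

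Under the A20WT label the abundant genes varied little between mice, and the Serpinb3 genes differed among themselves. Coefficients of variation were 3.17% for Serpinb3b, 3.94% for Serpinb12, 4.53% for Serpinb2 and 4.87% for Serpinb5. They were 11.2% for Serpinb7, 11.4% for Serpinb13 and 13.9% for Serpinb6c. Serpinb3a, with 77.4%, was more variable than Serpinb3b, although the 2 coding sequences are 93.0% identical. Without A20WT mouse 4 these were 26.4% for Serpinb3a and 0.52% for Serpinb3b. Under the A20KIKO label Serpinb3a reached 109% and Serpinb3b 35.4%, but without A20KIKO mouse 4 they were 20% and 18.1%.

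The 9 genes on chromosome 1 lie in a single cluster of 749 kb from Serpinb5 to Serpinb8. The span held 20 gene models in the files, 13 of them tested. Of these 13, 2 were called, Serpinb12 and Gm8080, where 3.49% of all tested genes were called. The 3 tested genes with log2 changes above 2, Gm8080, Serpinb3a and Serpinb3c, all lie in the central stretch of Serpinb3 genes, where Serpinb3b had 0.70. Without A20KIKO mouse 4, Gm8080 had 1.90 and Serpinb3c 0.89, and Serpinb3a alone of the 3 stayed above 2, at 2.28. At the far end, Serpinb7, Serpinb2, Serpinb10 and Serpinb8 had log2 changes between -0.32 and 0.14, and Serpinb5 at the near end had 0.00. Serpinb11, between the Serpinb3 genes and Serpinb7, had 0.46 (edgeR adjusted p = 0.461).

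**Figure D4:**
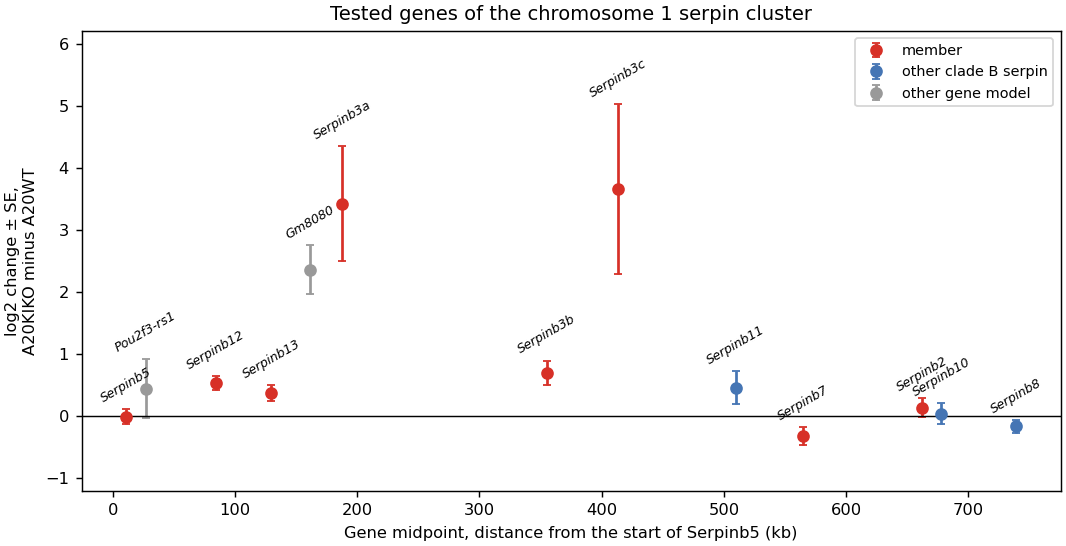
Log2 change (A20KIKO minus A20WT labels, vertical axis, with SE) of the 13 tested genes of the chromosome 1 cluster against the distance of each gene's midpoint from the start of Serpinb5 in kb, with the serpins described here in red, other clade B serpins in blue and other gene models in grey. The 3 values above 2 are Gm8080, Serpinb3a and Serpinb3c (1.90, 2.28 and 0.89 without A20KIKO mouse 4, not drawn), and the 4 serpins at the right lie between -0.32 and 0.14.

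Promoters of the called genes, Serpinb6c and Serpinb12, and of the pair Serpinb3a and Serpinb3b, are shown as the 250 bases before the RefSeq start (GRCm38.p6). RefSeq entries were matched for 9 of the 10 genes, all but Serpinb13. Motifs searched on both strands were GAAA and GAAA 2 bases apart (the core of the interferon-stimulated response element), TTCNNNGAA (STAT factors), TGANTCA (AP-1) and GGG and CC 5 bases apart (a loose NF-kB pattern). They occurred in 2.98%, 7.02%, 6.75% and 45.8% of 32851 such windows in the mouse genome. Capitals mark a match:
Serpinb6c, chr13:33905192-33905441, minus strand: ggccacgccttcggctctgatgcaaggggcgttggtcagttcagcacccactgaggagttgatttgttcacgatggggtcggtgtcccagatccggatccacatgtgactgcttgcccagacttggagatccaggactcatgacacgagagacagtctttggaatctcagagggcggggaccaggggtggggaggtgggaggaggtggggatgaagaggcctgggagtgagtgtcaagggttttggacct
Serpinb12, chr1:106934199-106934448, plus strand: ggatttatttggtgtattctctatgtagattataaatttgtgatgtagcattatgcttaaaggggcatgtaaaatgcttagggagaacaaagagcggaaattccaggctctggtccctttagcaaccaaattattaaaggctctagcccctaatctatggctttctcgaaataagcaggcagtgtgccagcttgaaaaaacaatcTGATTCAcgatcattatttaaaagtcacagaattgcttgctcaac
Serpinb3a, chr1:107052304-107052553, minus strand: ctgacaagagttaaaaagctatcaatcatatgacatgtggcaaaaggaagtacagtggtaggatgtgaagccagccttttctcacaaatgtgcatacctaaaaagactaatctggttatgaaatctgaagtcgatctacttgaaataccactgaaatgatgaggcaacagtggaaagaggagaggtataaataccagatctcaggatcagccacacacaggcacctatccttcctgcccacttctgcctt
Serpinb3b, chr1:107161115-107161364, minus strand: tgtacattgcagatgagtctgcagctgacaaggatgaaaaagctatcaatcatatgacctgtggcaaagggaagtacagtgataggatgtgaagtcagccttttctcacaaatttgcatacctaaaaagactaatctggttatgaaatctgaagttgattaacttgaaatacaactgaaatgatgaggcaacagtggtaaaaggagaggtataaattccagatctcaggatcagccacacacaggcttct

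The windows of Serpinb3a and Serpinb3b were 77.9% identical, and neither held a match. Serpinb6c held none either, which says only that these letters are not in this window. The windows of Serpinb6c, Serpinb3b and Serpinb7 lie inside the GENCODE M21 models of these genes. Those models start further upstream, at bases 33905708, 107278361 and 107399655, and windows before those starts were not searched for these genes. Serpinb12 held TGATTCA, an AP-1 match that begins 45 bases before the start. A second RefSeq start of Serpinb12 had no match in its window. AP-1 matches also lay in windows of Serpinb2, Serpinb5 and Serpinb7, which did not pass the test. The loose NF-kB pattern occurred 58 bases before the start of Serpinb5, and TTCCAAGAA, a STAT match, 77 bases before a second start of Serpinb2. The window of that second start overlaps 69 exonic bases of Serpinb2, and the STAT match lies past the start of the gene model at base 107511423. Windows of Serpinb3c and Serpinb3d held no match.

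Gene patterns closest to each of 3 serpins over the 8 libraries were sought among 10329 other tested genes whose mean was 5 CPM or more. Likeness was the root-mean-square difference in log2 CPM after centring each gene, and it is a description over libraries that share the label difference. For Serpinb6c the closest were Ifi35, an interferon-induced gene, the retinol dehydrogenase gene Rdh16 and the membrane protein gene Tmem176a, at 0.27, 0.27 and 0.28 log2 units. For Serpinb12 they were Rnase1, Abcg4 and Grina, at 0.07, 0.07 and 0.08. For Serpinb3a, whose own SD was 2.00 log2 units, they were Fetub, the lipoxygenase gene Alox8 and Lcn2, at 0.47, 0.49 and 0.56. Lcn2 encodes lipocalin 2, an antimicrobial protein that is in the keratinocyte stress list.

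Keratinocyte stress genes were measured beside Serpinb3a. Of 15 tested stress genes 1 rose, the chemokine gene Ccl20, and 0 fell, where 2.43% of all tested genes rose and 1.06% fell. At an unadjusted p under 0.05, 6 of the 15 were higher and 0 lower, where 8.48% and 6.92% of all genes were. The median log2 change of the 15 was 1.88, or 0.07 without A20KIKO mouse 4. The highest Serpinb3a level and the highest stress level were both in A20KIKO mouse 4. A20KIKO mice 1 to 3, with 63.5 to 94.8 CPM of Serpinb3a, had stress levels of 3301, 2097 and 2356 CPM. Libraries labelled A20WT had 2194, 1242, 1509 and 3525 CPM in mice 1 to 4. A20WT mouse 4, the highest of its label in stress level, was also the highest of its label in Serpinb3a, at 34.6 CPM. The part of the stress state in the Serpinb3a level was not tested. Interferon genes were also measured: 10 of 10 rose, with summed levels of 27.9 to 37.3 CPM under the A20WT label and 412 to 1263 CPM under the A20KIKO label.

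**Figure D5:**
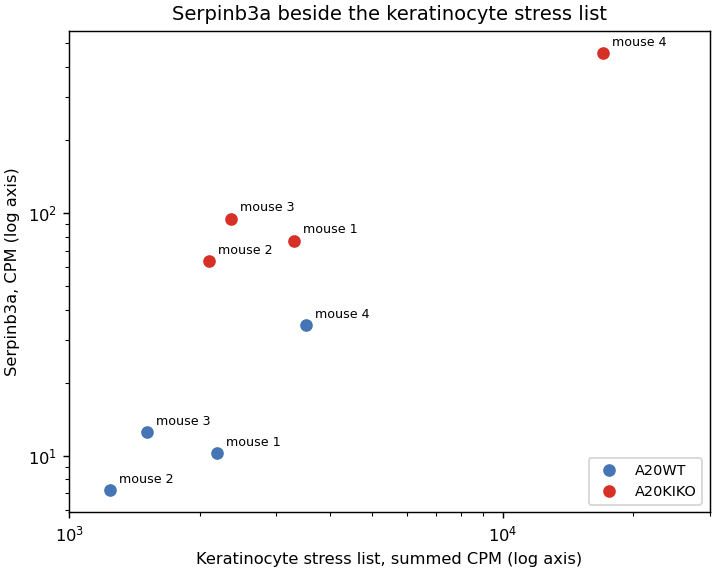
Serpinb3a level (CPM, log axis) of each library against the summed level of 15 keratinocyte stress genes (CPM, log axis), with A20WT-labelled mice in blue and A20KIKO-labelled mice in red. A20KIKO mouse 4 is highest on both axes, and A20KIKO mice 1 to 3 lie above the A20WT-labelled mice at stress levels of 2097 to 3301 CPM.

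Some marker lists of other cells differed by label or in A20KIKO mouse 4, and others overlapped. Of 12 monocyte and macrophage markers 10 were tested and 4 rose, C1qa, C1qb, C1qc and Ly6c2, with summed levels of 66.1 to 108 CPM and 109 to 193 CPM. Of 12 neutrophil markers 3 were tested and 0 passed in edgeR, DESeq2 or limma-voom, with 1 at an unadjusted p under 0.05. Their summed level reached 2942 CPM in A20KIKO mouse 4, with 947 CPM of S100a8 and 1899 CPM of S100a9, which stressed keratinocytes also make, and was 5.82 to 61.1 CPM elsewhere. Elane was at 0 in all 8 libraries, and Ly6g was at 0 outside A20KIKO mouse 4, where it had 1.61 CPM. Fibroblast markers had summed levels of 39.7 to 55.3 CPM under the A20WT label and 15.3 to 36.7 CPM under the A20KIKO label, without overlap. None of the 5 tested was called in edgeR, with 4 lower at an unadjusted p under 0.05 and 3 lower in DESeq2. Melanocyte markers had 42.6 to 58.6 CPM under the A20WT label, 94.7 to 224 CPM in A20KIKO mice 1 to 3 and 47.2 CPM in A20KIKO mouse 4, and 0 of 6 was called, or 5 without that mouse. At an unadjusted p under 0.05, 4 of the 6 were higher, and DESeq2 called 3. Mast cell and basophil markers summed to 27.2 CPM in A20KIKO mouse 4 and to 0.87 to 2.94 CPM elsewhere. Summed levels of T cell, Langerhans cell and endothelial markers overlapped between labels. The part of these cells in the serpin levels was not tested.

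Other clade B serpins, 18 listed for comparison, showed no called change. Of the 17 with a row in the files 12 were tested and 0 passed in edgeR, where 3.49% of all tested genes changed. At an unadjusted p under 0.05, 2 were higher and 2 lower (8.48% and 6.92% of all genes), and DESeq2 called 1 higher and 1 lower (4.44% and 2.46% of all genes). Their median log2 change was -0.04, against -0.01 over all tested genes and 0.54 over the 9 tested genes described above. Without A20KIKO mouse 4 it was 0.06 for the other clade B serpins and 0.44 for those 9 genes. The most abundant were Serpinb8, with 215 ± 8.28 and 192 ± 18.5 CPM (SD, n = 4 each, adjusted p = 0.519), and Serpinb6a, with 86.4 ± 14.4 and 72.6 ± 6.22 CPM (adjusted p = 0.383). Serpinb6d and Serpinb1a were named after their values were seen. Serpinb6d, a neighbour of Serpinb6c on chromosome 13, had 63.6 to 156 CPM under the A20WT label and 31.7 to 61.7 CPM under the A20KIKO label (log2 change -1.09, adjusted p = 0.0615, and 0.0193 without A20WT mouse 4). Serpinb1a, an inhibitor of neutrophil serine proteases, had 21.4 to 37.6 CPM and 40.0 to 104 CPM (log2 change 1.22, adjusted p = 0.092). Serpinb1a passed without A20KIKO mouse 2 (adjusted p = 0.0237) or mouse 3 (adjusted p = 0.0457).

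Proteases of the kinds these serpins meet were also measured. Of 33 listed 25 were tested, and 2 rose and 0 fell, where 2.43% of all tested genes rose and 1.06% fell. The median log2 change of the list was 0.34, or 0.06 without A20KIKO mouse 4. At an unadjusted p under 0.05, 6 were higher and 4 lower, where 8.48% and 6.92% of all genes were. DESeq2 called 3 higher and 2 lower, against 4.44% and 2.46% of all genes. Plat, the tissue-type plasminogen activator that Serpinb2 can inhibit, rose from 3.62 ± 1.03 to 8.70 ± 2.45 CPM (SD, n = 4 each, log2 change 1.27, edgeR adjusted p = 0.0138, and 0.055 without A20WT mouse 4). Klk10, a kallikrein-related gene of the epidermis, rose 1.78-fold (edgeR adjusted p = 0.0395), with adjusted p of 0.0742 to 0.15 without A20KIKO mouse 3 or any A20WT mouse.

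Other protease inhibitors of the skin, 24 listed, gave 20 tested genes, of which 2 rose and 0 fell. Over all tested genes 2.43% rose and 1.06% fell. At an unadjusted p under 0.05, 6 of the 20 were higher and 0 lower, where 8.48% and 6.92% of all genes were. Their median log2 change was 0.72, or 0.17 without A20KIKO mouse 4. Serpine2, protease nexin 1, an extracellular inhibitor of plasminogen activators and thrombin, rose from 3.49 ± 1.20 to 14.0 ± 3.93 CPM (SD, n = 4 each, log2 change 2.00, SE 0.27, edgeR adjusted p = 0.00184). Timp3, an inhibitor of matrix metalloproteinases, rose 1.59-fold (edgeR adjusted p = 0.0492). Leaving out A20KIKO mouse 1, 2 or 3, or A20WT mouse 1, 3 or 4, gave adjusted p of 0.0512 to 0.151.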

How the data were processed

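The authors deposited whole-number read counts by Ensembl gene, with 2 lanes per library in columns of their own. The submitters' processing notes list the builds GRCm38.p5 and GRCh38 with STAR 2.4.2a, Picard 1.139 and HTSeq 0.6.1p1, whose counting options were not given in the sources used here. Per the labels, the cDNA chemistry keeps neither strand nor molecular identifiers, so PCR copies and reads of overlapping genes on opposite strands cannot be told apart. Lanes were summed, giving 40451075 to 89624373 counts per library. Symbols matched 51633 of 51912 identifiers. In R 4.3.3 with edgeR 4.0.16, genes passing filterByExpr (minimum count 10, total 15) were scaled by TMM and fitted with robust quasi-likelihood dispersions and the label as its term. Standard errors were obtained as the size of the log2 change over the root of its F statistic. Sequence sharing and positions used GENCODE M21 (GRCm38), paralogs were aligned with MAFFT 7.526, and Python 3.11.15 drew the plots. The pipeline was tested on simulated data.

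The members and lists were chosen with earlier results of these data known. Named genes were the 10 members, up to 3 called genes per list with the smallest adjusted p or else the 2 most abundant, and the 3 closest patterns of called members and of the most variable. Alternatives were other size factors and filters, DESeq2 1.42.0, limma-voom 3.58.1, non-robust dispersions, thinned counts, single lanes, a replicate block and leaving out each library. Pairs of same-numbered libraries deviated together with correlations of -0.01 to 0.24, and the main fit assumed no pairing.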

Additional observations from a re-analysis of the deposited data

Results flagged for a closer look

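In 5 of 20 groups of 4 libraries, 1 library lay far from the other 3 for a serpin gene. The rule marks about 1 in 20 groups of independent, normally distributed values. Here the same mice recur for every gene and the Serpinb3 paralogs share sequence, so the 5 cannot be set against that rate. A20KIKO mouse 4 was the highest of its label for Serpinb3a (456 CPM, next 94.8), Serpinb3c (3.36 CPM, next 0.173) and Serpinb3d (1.63 CPM, next 0.147). A20WT mouse 4 was the highest of its label for Serpinb3b (130.4 CPM, next 123) and the lowest for Serpinb7 (338 CPM, next 424).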

How the results depend on the processing

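Of 21 alternatives, the count of serpin genes that rose was within 1.5 times the 2 of edgeR in 15. It was 4 in DESeq2 and in limma-voom with sample weights, and 1 to 3 when each library was left out. None of the 10 fell under any of them. Over all genes, 576 changed, with 374 under the strict filter (5 CPM in 4 libraries), 1133 in DESeq2, 1112 in limma-voom with sample weights and 348 to 619 when each library was left out. Serpinb6c kept its call in all 21. The summed Serpinb3 paralogs passed in limma-voom with sample weights (log2 change 1.144), and had 0.81 to 1.63 when each library was left out. With each library left out, Serpinb2 had -0.047 to 0.23 and Serpinb5 had -0.042 to 0.043. Serpinb2 changed sign without A20KIKO mouse 4 (-0.047). Serpinb5 did so without A20WT mouse 1 or 3 (0.013 and 0.018) and without A20KIKO mouse 2 or 4 (0.043 and 0.021), each within its standard error. The cause was not tested.

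The replicate number as a block gave 551 changed genes and 3 risen serpin genes, Serpinb3a joining (adjusted p = 1.02e-05), and the summed paralogs passed (log2 change 1.21, adjusted p = 0.0278). Of the 4 A20KIKO libraries, 2 deviated most like the A20WT library of the same number. This cannot decide whether same-numbered mice were paired, since no rate expected without pairing was set beside it. At the depth of these libraries, Serpinb3c and Serpinb3d rested on 21 and 6 counts under the A20WT label.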
